A study of Homo sapiens with 3 samples.

Results

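Receptor tyrosine kinases are cell surface proteins that bind a growth factor, a guidance cue or a neighbouring cell's ligand outside the cell and phosphorylate tyrosines inside it. Most work as pairs of receptors brought together by the ligand, and the phosphorylated tails recruit adaptor proteins and Src-family kinases such as YES1. In small cell lung cancer several of these receptors have been studied as drug targets, and RET, MET, FGFR1 and IGF1R are familiar names in this tumour type. The 45 receptor genes described here are a fixed list of receptor tyrosine kinases, kept apart from the kinases listed as dasatinib targets. Dasatinib is the Src-family and ABL inhibitor named in the series title, and whether it binds any of the 45 was not examined. The 45 genes were looked up by symbol among the 60609 genes of each count table, and 45 of 45 were matched.

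The libraries were made from NCI-H209, an established cell line of human small cell lung cancer. Lentivirus had brought in a doxycycline-inducible short hairpin, and each hairpin was represented by 1 library. The sh490 and sh1362 libraries carry different hairpins against YES1, and shGFP carries a control hairpin against GFP, which human cells lack. All 3 were given doxycycline at 1 µg/mL every 2 days. No difference of a single hairpin from shGFP has a replicate check, and nothing in the labels says whether separate cultures were used. In bulk RNA, fewer cells of a type and less RNA per cell cannot be told apart.

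The libraries held 7791747 counts for sh490, 7421552 for sh1362 and 4899006 for shGFP. YES1 had 163 and 216 counts with the hairpins against it and 1465 with shGFP. Neuroendocrine markers were present in each library, with 8 of 8 at a mean of 5 CPM or more (counts scaled to a common library size by trimmed mean of M values), and they summed to 2830, 3740 and 2700 CPM. Globin transcripts summed to 18.6, 20.4 and 734 CPM in sh490, sh1362 and shGFP. Mitochondrial transcripts took 5.5%, 7.78% and 5.47% of the counts.

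NCI-H209 expressed many of these receptors, and a few of them carried most of the RNA. Levels between genes are given in TPM, which divides counts by the exon length of each gene. A mean of 1 TPM or more over the 3 libraries was reached by 27 of the 45 receptors. The 45 together summed to 657 TPM in sh490, 658 in sh1362 and 566 in shGFP. RET, MET, ERBB3 and FGFR1 together held 62.1%, 72.7% and 61.2% of those sums. In each library these 4 genes had the highest levels of the list.

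RET, the receptor for ligands of the GDNF family, ranked first. It had a level of 135 TPM in sh490, 245 in sh1362 and 108 in shGFP. MET, the receptor for hepatocyte growth factor, had 114, 150 and 85.5 TPM in the same order. RET was above MET in each of the 3 libraries, though the ranges over libraries overlap. ERBB3, a neuregulin receptor with a weak kinase that signals through its partner ERBB2, had 102, 41.7 and 67.1 TPM. FGFR1, a receptor for fibroblast growth factors, had 56.9, 42.4 and 86.1 TPM. ERBB3 was above FGFR1 in sh490 and below it in sh1362 and shGFP. The next receptor, EPHB2, which binds ephrin-B ligands, had 24.7, 34.7 and 16.9 TPM, below every value of the first 4.

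**Figure D1:**
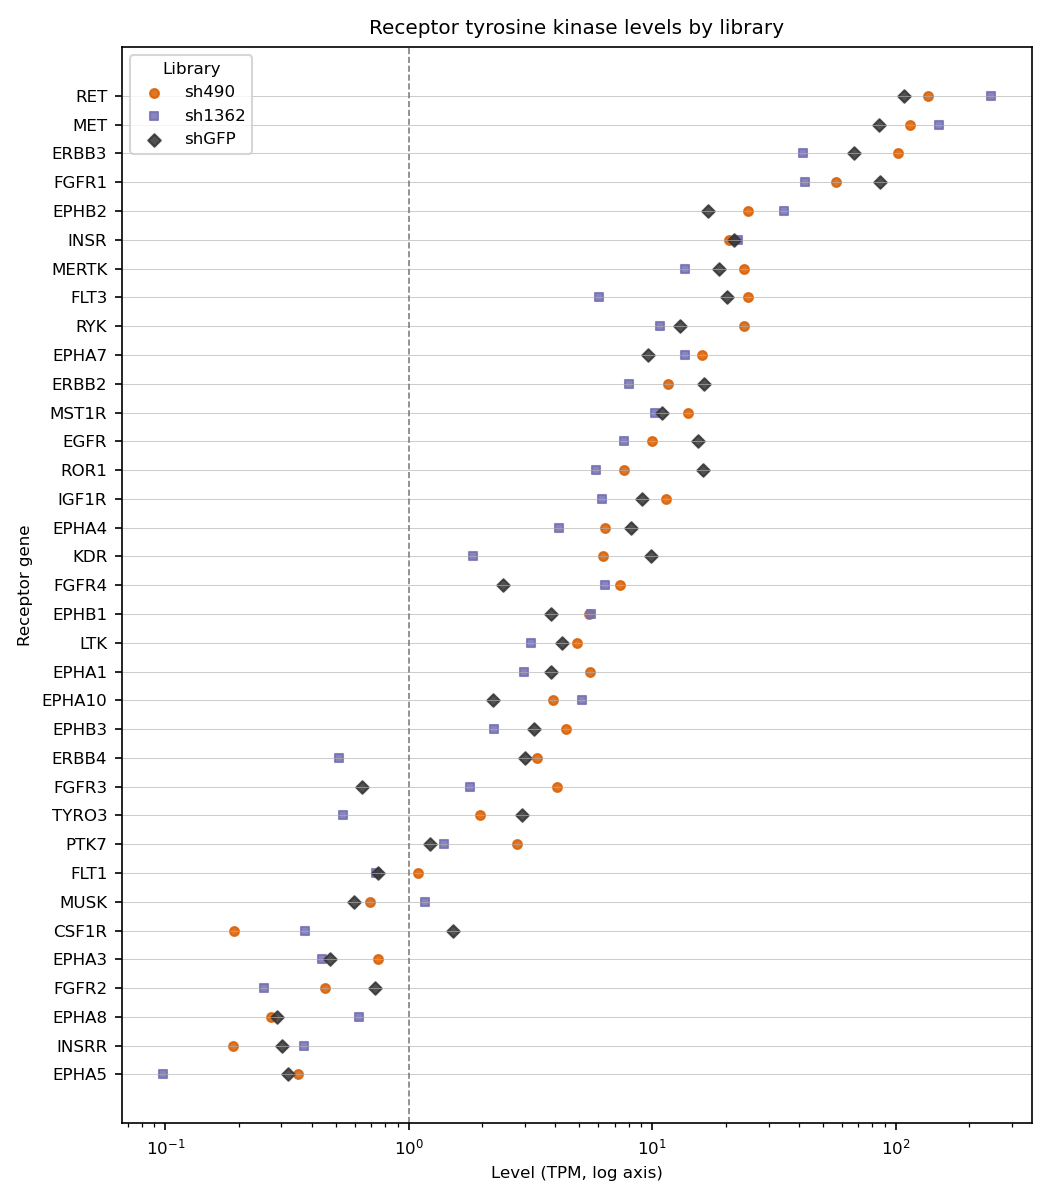
Level of each receptor in TPM on a log axis, 1 point per library, for the 35 receptors with more than 3 counts in some library, ordered by mean level; the dashed line marks 1 TPM. RET and MET stand at the top, and 27 receptors have a mean at or above the line.

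Between a mean of 10 and 25.5 TPM stood EPHB2, INSR (the insulin receptor), MERTK, FLT3, RYK, EPHA7, ERBB2, MST1R and EGFR. INSR varied least of these, with levels of 20.6, 22.4 and 21.7 TPM in sh490, sh1362 and shGFP. MERTK, which with TYRO3 and AXL forms the family that binds GAS6 and protein S, had 23.9, 13.6 and 18.8 TPM. AXL had no count in any library, and TYRO3 had 1.96, 0.538 and 2.91 TPM, so MERTK held most of the RNA of its family. ERBB2 and EGFR had mean levels of 12.0 and 11.0 TPM, far under ERBB3, and their library values overlap each other. IGF1R, the receptor for insulin-like growth factors, had 11.4, 6.23 and 9.03 TPM. ROR1, a WNT5A receptor that is widely expressed in the embryo, had 7.67, 5.89 and 16.2 TPM.

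At the other end, 10 receptors had no library over 3 counts, the number that a count of 0 still allows. They were AXL, TEK, ROS1 and NTRK3, with no count at all, and EPHB6, ROR2, TIE1, ALK, FLT4 and NTRK2, with 1 or 2 counts in a single library. A floor of 3 counts equals 0.379 CPM in sh490, 0.407 in sh1362 and 0.622 in shGFP, so lower levels were not detectable at this depth. A further 6 receptors, FGFR2, CSF1R, INSRR, EPHA3, EPHA5 and EPHA8, had a mean under 1 CPM. Another 6, namely LTK, FGFR3, EPHB3, PTK7, FLT1 and MUSK, had a mean of 1 to 5 CPM. The remaining 23 had a mean of 5 CPM or more, and only for these were folds counted.

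Some receptors on the list are best known from other cell types. KDR and FLT1 are the VEGF receptors of endothelium, and KDR had 81, 24 and 80 counts in sh490, sh1362 and shGFP. Of 6 endothelial markers 3, 3 and 1 were at 0 in these libraries, with EMCN at 0 in all and VWF at 0, 1 and 2 counts. The endothelial list summed to 6.58, 5.43 and 6.84 CPM, with ERG at 41, 24 and 16 counts and PECAM1 at 8, 15 and 10. CSF1R, the receptor of macrophages, had 2, 4 and 10 counts. Of 8 leukocyte markers 5, 4 and 3 were at 0, among them CD3E in each library. That list summed to 2.02, 3.12 and 7.46 CPM, with S100A9 at 1, 0 and 20 counts and S100A8 at 0, 0 and 5. CD14 had 14, 10 and 6 counts and LYZ 1, 9 and 3, so these markers did not share 1 order. CSF1R, the leukocyte sum and the globins were each highest in shGFP. Their part in the CSF1R counts was not tested. FLT3, the receptor of early blood progenitors, did not follow that order, with 209, 52 and 108 counts. Of 5 fibroblast markers 2 were at 0 in each library, among them DCN. COL1A1 had 70, 45 and 35 counts and PDGFRA 14, 4 and 13, and the list summed to 10.9, 7.2 and 10.2 CPM.

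The promoters of 3 receptors are shown because RET had the highest level and because, of the 23 receptors averaging 5 CPM or more, only FGFR4 and ROR1 lay at least 2-fold from shGFP with both hairpins, in opposite directions. Each stretch of 300 bases runs from 250 bases before to 50 bases after the most upstream annotated start (RefSeq, GRCh38.p14), 5′ to 3′. Capitals mark GGGCGG on either strand, the core of the GC box bound by SP-family factors; overlapping matches run together. The stretches lie at chr10:43076819-43077118, chr5:177086665-177086964 and chr1:63773767-63774066, all on the plus strand.
RET: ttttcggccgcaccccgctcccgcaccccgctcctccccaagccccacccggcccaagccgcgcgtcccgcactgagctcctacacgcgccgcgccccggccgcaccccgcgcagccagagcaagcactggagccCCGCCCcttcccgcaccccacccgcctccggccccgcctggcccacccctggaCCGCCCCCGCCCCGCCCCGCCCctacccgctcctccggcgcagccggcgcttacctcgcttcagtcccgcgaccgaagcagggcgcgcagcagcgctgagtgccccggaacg
FGFR4: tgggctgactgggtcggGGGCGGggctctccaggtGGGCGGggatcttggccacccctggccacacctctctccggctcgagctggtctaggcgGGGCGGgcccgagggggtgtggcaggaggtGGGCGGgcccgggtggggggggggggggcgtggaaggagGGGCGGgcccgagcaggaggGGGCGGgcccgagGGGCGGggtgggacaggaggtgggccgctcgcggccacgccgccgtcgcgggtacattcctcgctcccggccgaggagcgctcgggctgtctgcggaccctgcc
ROR1: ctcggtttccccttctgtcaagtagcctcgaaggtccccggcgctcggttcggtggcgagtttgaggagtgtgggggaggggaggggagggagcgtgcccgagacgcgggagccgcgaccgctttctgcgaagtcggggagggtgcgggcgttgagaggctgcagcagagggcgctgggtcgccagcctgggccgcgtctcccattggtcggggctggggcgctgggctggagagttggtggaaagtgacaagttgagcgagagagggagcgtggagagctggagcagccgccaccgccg
The RET and FGFR4 stretches held 5 and 7 such matches, and that of ROR1 held 0; none held TATAAA on either strand. Among the 40 of 45 receptors with a promoter in the table, 31 held GGGCGG, or 77.5%, against 58.3% of 15843 protein-coding promoters of the same length. Their median GC content was 69.2%, against 62.7% over those promoters. TATAAA was found in 1 of the 40, or 2.5%, and in 9.75% of all. A match of letters is a description and not a bound site.

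To ask whether receptors differ on YES1 silencing, the libraries of both hairpins were first taken as 1 group and set against shGFP. No receptor passed this test. Of the 45, 31 passed the filter on low counts of edgeR's quasi-likelihood test, and with Benjamini-Hochberg adjustment 0 were higher and 0 were lower (adjusted p under 0.05). Over 15708 genes tested, 0% were higher and 0.0255% lower, including the 3 globin genes. The lowest adjusted p among the receptors was 0.986. At an unadjusted p under 0.05, 2 receptors lay higher (FGFR4 and EPHB2) and 3 lower (ROR1, FGFR1 and EGFR), where 2.27% and 2.08% of all genes did. DESeq2 and limma-voom also called 0 receptors. The spread was estimated from the pair of hairpin libraries, with 1 residual degree of freedom and moderation over genes; shGFP, being alone, was taken to vary as they do.

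Each hairpin was then set against shGFP by size alone. A log2 fold here is the difference in log2 CPM with a prior count of 2, and receptors 2-fold or more apart were counted. Of the 23 receptors with a mean of 5 CPM or more, sh490 had 1 higher (FGFR4) and 1 lower (ROR1), where 1.39% and 1.42% of 11638 genes were. With sh1362, 4 lay higher (FGFR4, RET, EPHA10 and EPHB2) and 5 lower (ERBB4, KDR, TYRO3, FLT3 and ROR1), where 3.30% and 6.00% of all genes were. With both hairpins 1 receptor was 2-fold or more higher and 1 lower, where 0.808% and 0.593% of genes were. With a minimum mean of 1 CPM, 3.84% of all genes lay higher with sh490. With a minimum mean of 10 CPM, where 17 receptors remained, the shares of all genes were 0.966% higher and 1.08% lower with sh490 and 2.35% higher and 5.37% lower with sh1362. The median log2 fold of the 23 was 0.29 with sh490 and -0.37 with sh1362, beside 0.00 and -0.01 over all genes. Both comparisons share the shGFP library. With both hairpins 7 of the 23 lay higher, 7 lower and 9 in opposite directions. Over all 11638 genes these numbers were 3932, 4010 and 3696.

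**Figure D2:**
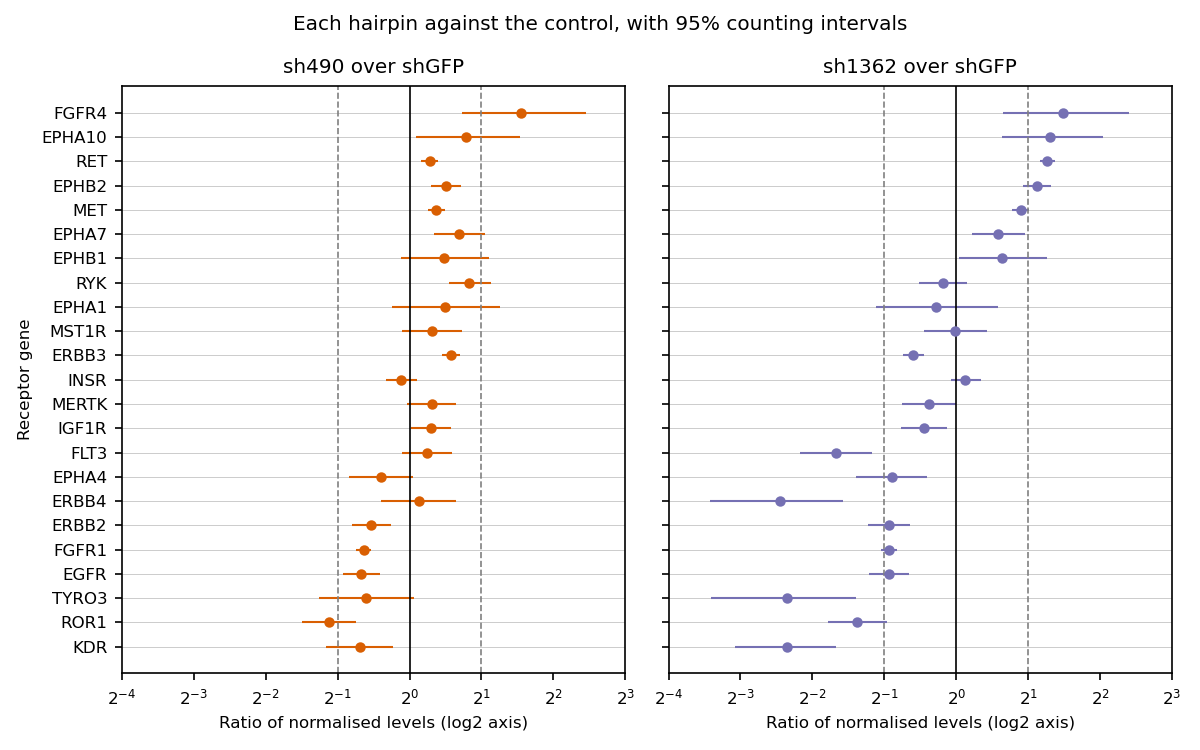
Ratio of normalised levels to shGFP on a log2 axis for the 23 receptors with a mean of 5 CPM or more, sh490 on the left and sh1362 on the right; bars are exact 95% counting intervals, and dashed lines mark 2-fold. FGFR4 lies to the right and ROR1 to the left in both panels, while ERBB4, KDR, TYRO3 and FLT3 lie far left with sh1362.

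FGFR4 was the only one of the 23 receptors that lay 2-fold or more higher with both hairpins. FGFR4 (ENSG00000160867.15, chromosome 5, 177086905 to 177098144, plus strand, GRCh38) is the main FGF receptor of liver and binds FGF19 together with beta-klotho. Its counts were 72 with sh490, 64 with sh1362 and 15 with shGFP. Both hairpin libraries were above the control, at 2.93 times its normalised level with sh490 (exact 95% counting interval 1.66 to 5.50) and 2.79 times with sh1362 (1.57 to 5.28). In edgeR the log2 fold was 1.51 (standard error, SE, 0.56) at an adjusted p of 0.986. FGFR3, under 5 CPM, had 40, 18 and 4 counts, or 6.10 times (2.21 to 23.5) and 2.95 times (0.971 to 12.0) the shGFP level. FGFR1, far more abundant, lay on the other side with 1604, 1217 and 1524 counts, 0.642 times (0.598 to 0.689) and 0.523 times (0.485 to 0.564). FGFR2 had 7, 4 and 7 counts. Members of the FGF receptor family therefore differed in direction, and none passed the test.

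ROR1 was the only one of the 23 that lay 2-fold or more lower with both hairpins; CSF1R, at 2, 4 and 10 counts, also lay lower but is below 5 CPM. ROR1 (ENSG00000185483.12, chromosome 1, 63774017 to 64181498, plus strand) had 105 counts with sh490, 82 with sh1362 and 139 with shGFP, the shallowest library. These are 0.461 times (0.354 to 0.598) and 0.386 times (0.290 to 0.511) the shGFP level. In edgeR its log2 fold was -1.24 (SE 0.36); the unadjusted p was 0.00881 and the adjusted p 0.986. Without a filter on low counts ROR1 had the lowest adjusted p of the receptors, 0.296. Its relatives ROR2, with 2, 0 and 0 counts, and MUSK, the agrin-responsive receptor of the neuromuscular junction, with 13, 22 and 7 counts, were low.

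RET had its highest level with sh1362. RET (ENSG00000165731.20, chromosome 10, 43077064 to 43130351, plus strand) had 1893 counts with sh490, 3490 with sh1362 and 950 with shGFP. That is 1.22 times (1.12 to 1.32) the shGFP level with sh490 and 2.41 times (2.24 to 2.59) with sh1362. In edgeR the log2 fold was 0.86 (SE 0.43) at an adjusted p of 0.986. The neuroendocrine factor INSM1 had its highest level in the same library, with log2 folds of 0.86 and 1.75, and it stood furthest from shGFP of the 8 neuroendocrine markers. Of these 8, 3 lay higher with both hairpins, 0 lower and 5 in opposite directions; CHGA, SYP, NCAM1 and SCG3 lay below shGFP with sh490, and GRP with sh1362. The list's sum in sh1362 was 3740 CPM. Whether the neuroendocrine genes have a part in the RET values was not tested. MET (ENSG00000105976.15, chromosome 7, 116672196 to 116798386, plus strand) had 1675, 2244 and 791 counts, 1.29 times (1.19 to 1.41) and 1.86 times (1.71 to 2.02) the shGFP level. Its relative MST1R, the receptor for macrophage-stimulating protein, had log2 folds of 0.30 and -0.01.

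In the ERBB family, EGFR and ERBB2 lay lower with both hairpins and ERBB3 and ERBB4 differed between them. EGFR had 254, 198 and 247 counts in sh490, sh1362 and shGFP, 0.627 times (0.524 to 0.750) and 0.525 times (0.433 to 0.636) the control level. ERBB2 had 244, 172 and 215 counts and log2 folds of -0.53 and -0.92. ERBB3 (ENSG00000065361.15, chromosome 12, 56076799 to 56103505, plus strand) had 1887, 781 and 775 counts, 1.49 times (1.37 to 1.62) the control with sh490 and 0.660 times (0.597 to 0.730) with sh1362. ERBB4, a neuregulin receptor with an active kinase, had 89, 14 and 50 counts, 1.09 times (0.760 to 1.57) and 0.183 times (0.0936 to 0.337). Its sh490 value was within counting error of shGFP.

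Of 6 EPH receptors with a mean of 5 CPM or more, EPHA7, EPHA10, EPHB1 and EPHB2 lay higher with both hairpins, as did 3932 of all 11638 genes. EPHB2 had 630, 901 and 271 counts in sh490, sh1362 and shGFP, 1.42 times (1.23 to 1.64) and 2.18 times (1.90 to 2.50) the control level. In edgeR its log2 fold was 0.85 (SE 0.35) at an adjusted p of 0.986. EPHA10, whose kinase domain is thought to be inactive, had 65, 87 and 23 counts, and EPHA7 had 243, 211 and 92. EPHB1 had 78, 81 and 34 counts, and its interval of 0.924 to 2.16 times the shGFP level with sh490 includes no change. EPHA4, which guides axons by binding both classes of ephrin, lay lower with 98, 65 and 79 counts and log2 folds of -0.39 and -0.87. EPHA1 lay in opposite directions with log2 folds of 0.47 and -0.26. The family as a whole, 11 genes, summed to 155, 191 and 115 CPM.

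Among the insulin receptor family INSR lay near the control with both hairpins. INSR had 455, 503 and 301 counts, with log2 folds of -0.12 and 0.13, and its counting intervals of 0.795 to 1.07 and 0.947 to 1.27 times the shGFP level include no change. IGF1R had 324, 180 and 161 counts and log2 folds of 0.29 and -0.44. RYK, a WNT receptor with an inactive kinase domain, had 392, 180 and 134 counts, 1.78 times (1.46 to 2.19) with sh490 and 0.880 times (0.700 to 1.11) with sh1362. PTK7, another receptor without kinase activity, had 51, 26 and 14 counts.

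The hairpins were also set against each other, since both target YES1. Of the 23 receptors, 6 lay at least 2-fold higher with sh490 than with sh1362 and 0 lower, where 3.88% and 2.02% of all genes did. With a minimum mean of 10 CPM, 4 of 17 receptors lay higher and 0 lower, where 3.38% and 1.39% of all genes did. The 6 were ERBB4, FLT3, TYRO3, KDR, ERBB3 and RYK. ERBB4 was 5.92 times as high in sh490 as in sh1362 (counting interval 3.35 to 11.3) and FLT3 3.74 times (2.75 to 5.17), from 209 counts in sh490 and 52 in sh1362. TYRO3 had 43 counts in sh490 and 12 in sh1362, 3.34 times (1.73 to 6.95), and KDR had 81 and 24, 3.14 times (1.97 to 5.19). ERBB3 was 2.25 times as high (2.07 to 2.45) and RYK 2.03 times (1.70 to 2.43). In the other direction RET stood nearest to 2-fold, with a level in sh490 0.505 times that in sh1362 (0.477 to 0.534). The counts of ERBB4, FLT3, TYRO3 and KDR that lay low against shGFP and against sh490 are those of the same sh1362 library. With 1 library per hairpin, these values compare libraries and carry no test.

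**Figure D3:**
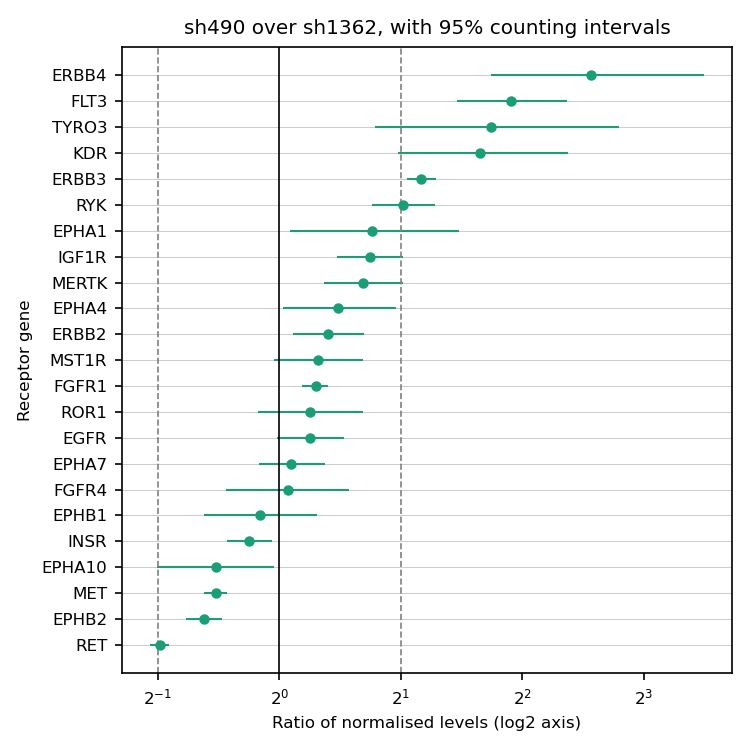
Ratio of normalised levels in sh490 over sh1362 on a log2 axis for the same 23 receptors, with exact 95% counting intervals; the solid line marks equal levels and dashed lines mark 2-fold. The 6 receptors at the top lie above 2-fold, and RET at the bottom lies at 0.505.

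Ligands for the expressed receptors were read from the same libraries. Of the 130 ligands, co-receptors, adaptors and restraining factors listed as partners of the receptors, 89 entered the edgeR test and 0 passed, with adjusted p-values of 0.986 or more. At an unadjusted p under 0.05, 4 were higher and 8 lower. By list these were 1 higher and 0 lower of 8 ERBB ligands tested, 1 and 1 of 5 FGFs, 0 and 0 of 7 ephrins, 0 and 1 of 5 ligands of other receptors, 1 and 2 of 11 co-receptors, 1 and 2 of 24 adaptors and 0 and 2 of 18 restraining factors. The share of all genes was 2.27% and 2.08%, as above.

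Several expressed receptors had a ligand gene expressed beside them. HGF, the ligand of MET, had 22.9, 28.7 and 39.1 TPM in sh490, sh1362 and shGFP, highest in the control. MST1, the ligand of MST1R, had 1.06, 0.949 and 1.23 TPM. For the ERBB receptors AREG, the amphiregulin gene, had 43.3, 103 and 68.1 TPM and TGFA had 25.2, 29.2 and 22.4 TPM. Both are EGFR ligands. The neuregulins, ligands of ERBB3 and ERBB4, were less abundant. NRG1 had 0.757, 0.609 and 1.32 TPM, with log2 folds of -0.80 and -0.97, and NRG3, an ERBB4 ligand, had 5.01, 6.60 and 11.8 TPM, with log2 folds of -1.23 and -0.73. Both lay lower with both hairpins. HBEGF, a heparin-binding ligand of EGFR and ERBB4, had 56, 133 and 14 counts, 2.44 times (1.34 to 4.75) and 6.22 times (3.58 to 11.7) the shGFP level, with an edgeR adjusted p of 0.986. Among FGFs, FGF9 had the highest level, at 34.0, 46.2 and 35.7 TPM. FGF19, the FGFR4 ligand, had 24, 32 and 2 counts, 7.32 times (1.82 to 63.9) and 10.5 times (2.67 to 90.3) the control, below 5 CPM. KLB, which encodes beta-klotho and was singled out with its values known, had 16, 18 and 12 counts. Scaled to library size it did not lie higher with either hairpin, with log2 folds of -0.26 and -0.02.

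**Figure D4:**
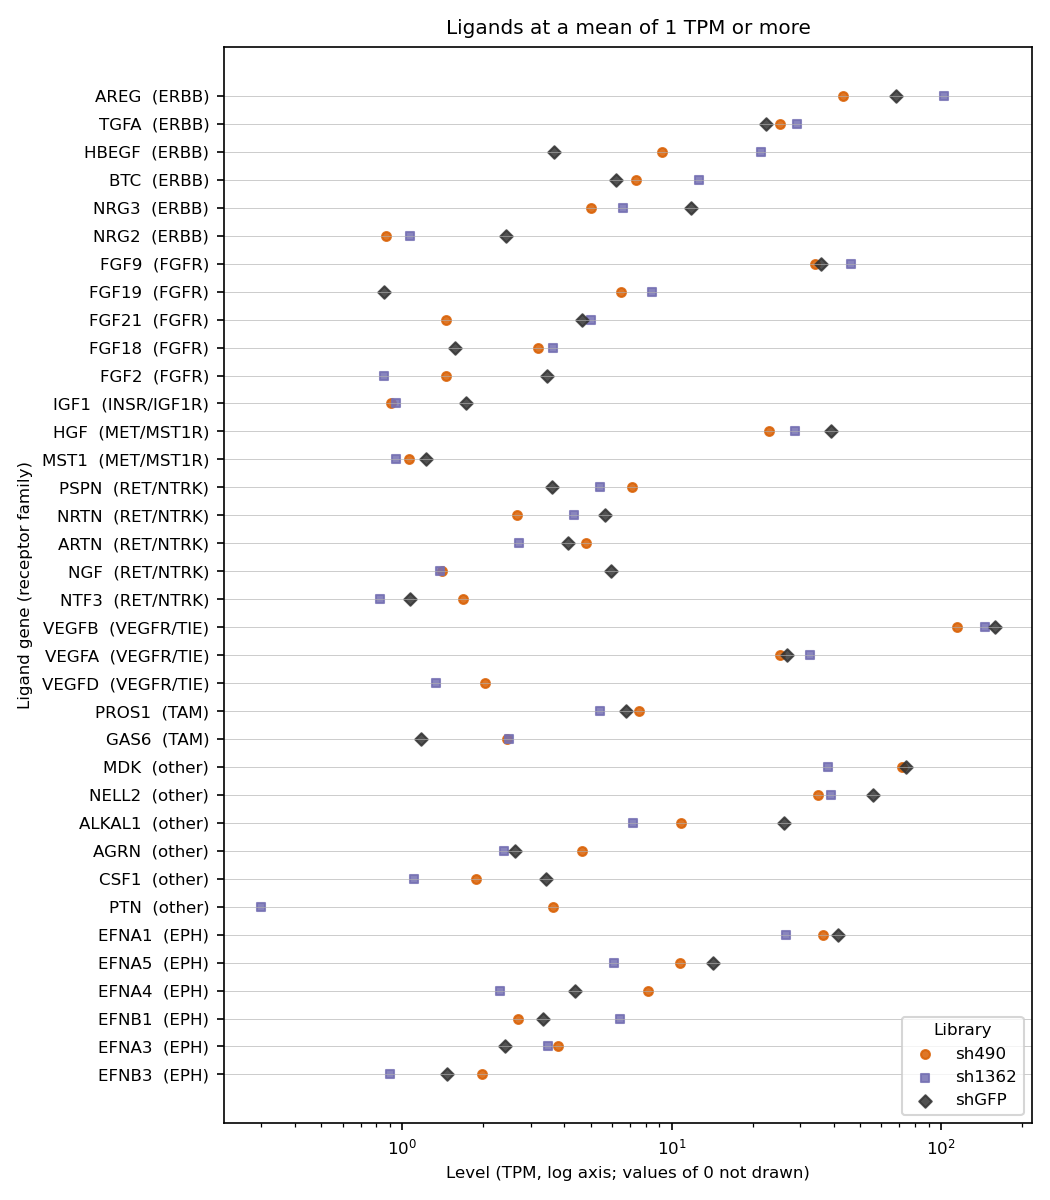
Level in TPM on a log axis of the 36 ligand genes with a mean of 1 TPM or more, 1 point per library, grouped by receptor family; values of 0 are not drawn. VEGFB, AREG and MDK stand furthest right, and HBEGF and FGF19 have their shGFP point left of both hairpin points.

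RET signals with a GFRA co-receptor. GFRA3, which binds artemin, had 77.3, 20.1 and 64.1 TPM in sh490, sh1362 and shGFP, lowest in the library where RET was highest. Its log2 folds were 0.23 and -1.56. GFRA1 had 115, 71 and 106 counts and log2 folds of -0.59 and -1.16, and GFRA2 and GFRA4 had no count. Among the RET ligands ARTN, the artemin gene, had 4.80, 2.72 and 4.12 TPM. NRTN had 2.66, 4.35 and 5.64 TPM and PSPN 7.15, 5.43 and 3.60 TPM, while GDNF had 0, 0 and 5 counts. VEGFB, a ligand of FLT1, had 115, 146 and 159 TPM. VEGFA, a ligand of both FLT1 and KDR, had 25.2, 32.6 and 26.9 TPM. NRP2, a co-receptor for VEGF and semaphorins, had 145, 97 and 171 counts and log2 folds of -0.94 and -1.41. EFNA1 and EFNA5, ligands of EPHA receptors, lay lower with both hairpins, EFNA1 by log2 folds of -0.22 and -0.55 and EFNA5 by -0.45 and -1.11. PROS1, which encodes protein S, had 7.57, 5.41 and 6.75 TPM beside MERTK. GAS6, the other ligand listed for that family, had 30, 31 and 9 counts, below 5 CPM. These are 2.03 times (0.941 to 4.87) and 2.26 times (1.05 to 5.39) the shGFP level.

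Some pairs were incomplete. ALKAL1, an ALK and LTK ligand singled out with its values known, had 25, 17 and 38 counts. Of its receptors ALK had 0, 2 and 0 counts, while LTK was present with 35, 23 and 19, or 4.92, 3.18 and 4.26 TPM. NELL2, a ligand of ROS1 known from the mouse epididymis, had 34.9, 38.9 and 55.8 TPM, and ROS1 had no count. FLT3LG, the FLT3 ligand, also singled out that way, had 0, 2 and 0 counts, but 37.5% of its exon bases are shared with other genes and reads there were left out. INS had no count, with 31.7% of its exon bases shared. IGF1 had 15, 16 and 18 counts, with 82.4% shared, and IGF2 had no count, with 72.1% shared. The levels of IGF1 and IGF2 therefore cannot be read from these counts. Among the receptors themselves 32 of 45 share no exon base with another gene, and the highest share was 6.93%, in ERBB2.

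Inside the cell, 22 of the 27 adaptors had a mean of 1 TPM or more, and the highest means were those of PTPN11 and GRB2. PTPN11, the phosphatase SHP2 that carries receptor signals to RAS, had 262, 278 and 267 TPM in sh490, sh1362 and shGFP, and GRB2 had 141, 102 and 104 TPM. IRS2, the adaptor of insulin and IGF receptors, had 705, 655 and 863 counts, 0.498 times (0.451 to 0.551) and 0.497 times (0.448 to 0.551) the shGFP level. In edgeR its log2 fold was -1.01 (SE 0.26), with an unadjusted p of 0.00467 and an adjusted p of 0.986. NCK2, which links receptors to actin, lay the other way with 639, 872 and 217 counts and log2 folds of 0.84 and 1.39. In sh1362 its level of 141 TPM was above that of GRB2. SDC1, a heparan sulfate co-receptor for FGFs and HGF, had 504, 382 and 131 counts, 2.35 times (1.93 to 2.87) and 1.91 times (1.56 to 2.35). SDC4, of the same family, had 77.2, 72.9 and 56.0 TPM. Among restraining factors, CBL, the ubiquitin ligase that sends receptors for degradation, had 432, 330 and 411 counts and log2 folds of -0.64 and -0.92. SOCS4 had the highest mean level of the restraining factors, with 83.3, 56.8 and 95.3 TPM. It led in sh490 but not in shGFP or in sh1362, where ERRFI1 had 88.3 TPM. SOCS5 had log2 folds of -1.12 and -0.65. ERRFI1, an inhibitor of EGFR kinase, had -0.06 and 0.43.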

How the data were processed

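Per the labels, polyadenylated RNA of 3 NCI-H209 libraries was sequenced after SMARTER library preparation. The authors deposited unnormalized read counts for each gene. The submitters' processing notes name FastQC 0.11.8, STAR 2.6.1c and GRCh38; the file headers name featureCounts 1.6.0 with GENCODE 32 exons. No strand option appears in that command, so overlapping genes cannot be told apart by strand, and reads overlapping several genes were left out.

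Symbols were matched for 60295 of 60609 genes. From the counts, edgeR 4.0.16 (R 4.3.3) gave filterByExpr, trimmed-mean scaling and a robust two-sided quasi-likelihood test of both YES1 hairpins against shGFP over 15708 genes. CPM used those scaled library sizes. TPM used the tables' exon lengths. Single-hairpin folds (prior count 2) covered 11638 genes averaging at least 5 CPM. Ratios carry exact 95% intervals (Clopper-Pearson on the pair of counts), which treat each read as a separate count and leave out the spread between libraries. Reads lacking molecular identifiers do not each stand for a molecule, so the intervals can be too narrow even for counting error. DESeq2 1.42.0 and limma 3.58.1 were alternatives. The test was run on simulated data first.

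Receptors with a mean of 5 CPM or more were named with values, and the others by class, some of them with counts as well. In each partner list up to 4 genes were named by highest TPM and by largest fold shared by both hairpins. Others printed (IGF2, GDNF, ARTN, GFRA1, GFRA2, GFRA4, NRG3, KLB, ALKAL1, FLT3LG) were chosen with their values known. The members and lists were chosen with earlier results of these data known. The p-values reflect the spread among these libraries alone.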

Additional observations from a re-analysis of the deposited data

How the results depend on the processing

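No receptor passed at an adjusted p under 0.05 in edgeR with DESeq2 size factors, without a filter, with a mean of 5 CPM or more, or without mitochondrial and globin genes, nor in DESeq2 or limma-voom. Over all genes, edgeR without a filter called 22 higher and 36 lower of 27622, beside 0 and 4 of 15708 in the main run. Every other setting called 0 higher and at most 4 lower. Of the numbers of receptors at least 2-fold apart, 4 moved by over 1.5 times with the filter on low counts. With a mean of 1 CPM or more, 3 of 29 receptors lay higher with sh490, where 3.84% of all genes did. With 10 CPM or more (17 receptors left), 0 lay higher with sh490, and 2 lay higher and 3 lower with sh1362, where 0.966%, 2.35% and 5.37% of all genes did. Fewer receptors enter under that filter. Other scalings and prior counts of 0.5 or 5 kept these numbers within 1.5 times. The 2-fold calls of FGFR4, EPHA10, ERBB4 and TYRO3 rest on 15, 23, 14 and 12 counts in the lowest library. The shGFP library could not be left out, because it is the only control. Each hairpin alone gives a value without a test. No paired analysis was possible because each hairpin has 1 library and the labels give no replicate numbers.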
